A study of Arabidopsis thaliana with 12 samples.

Results

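The genes described here are 45 Arabidopsis genes that run the cell division cycle, listed by probe set: the DNA replication machinery, the regulators of entry into the cycle, the kinases, cyclins and motors of G2 phase and mitosis, and inhibitors of the cycle. Of the 45 genes, 40 had a probe set among the 21461 that were tested. The 40 comprised 11 replication genes, 7 genes of cycle entry, the kinase CDKA;1, 17 genes of G2 and mitosis and 4 inhibitors. MCM6, CDKB1;1, CDKB1;2, CYCB1;2 and CDC20.1 were not analysed here.

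In plants, as in animals, a D-type cyclin bound to the kinase CDKA releases E2F transcription factors, and these switch on the genes for DNA synthesis. The MCM proteins form the ring-shaped helicase that opens the DNA, the PCNA clamp holds the polymerase on it, and ribonucleotide reductase supplies the deoxynucleotides. Mitotic cyclins, the plant-specific CDKB kinases and cytokinesis proteins then act in G2 and mitosis, while KRP and SIAMESE-type proteins inhibit the kinases and in leaves accompany the switch to endoreduplication, in which DNA is copied without division.

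RNA came from young leaves of the Columbia ecotype, grown in peat pellets with 10 h of light per day at 22 °C, and was hybridised to 12 Affymetrix ATH1 arrays. In moderate drought, watering stopped 30 days after sowing, the soil was kept at 30% of field capacity, and leaves were sampled on day 1 and on day 10. In progressive drought, it stopped 35 days after sowing and leaves were sampled on the day on which wilting was first seen. Well-watered controls accompanied each of these 3 samplings, so there were 6 groups of 2 arrays, and each array carried a pool of 5 plants. All plants were of one ecotype and no transgene was used. A measured level was the deposited log2 expression value, and a change was the drought mean minus the mean of its own control, with a standard error from limma. A gene was called when its limma p-value, adjusted over all 21461 probe sets by the Benjamini-Hochberg method, was under 0.05. Because whole leaf tissue was used, fewer dividing cells and less RNA of a gene per dividing cell cannot be told apart.

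The sorted values of the 4 arrays of a sampling were nearly the same and differed between samplings (mean SD 0.0214 to 0.0302 within a sampling and 0.300 over all arrays), as after normalisation in separate sets, so levels were compared only within a sampling. Replicate arrays correlated at 0.964 to 0.997. The spread between replicates, as a root mean square SD over all probe sets, was 0.123 and 0.153 log2 units in the day 1 control and drought groups, 0.147 and 0.210 at day 10, and 0.314 and 0.369 in progressive drought. The fit pooled this spread over all 12 arrays. Its errors are therefore mostly smaller for progressive drought, and mostly larger for moderate drought, than those arrays alone would give. Whether this lowered the number of calls in moderate drought was not tested, and counts from fits that allow for it stand beside the main ones. Having only 2 arrays in each group limits how precise any value can be.

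After 1 day of moderate drought, 0 of the 40 genes were called, against 0.0186% of all probe sets. In the 4 arrays of day 1 fitted alone, 0 of the 40 were called, where 79 of all probe sets were lower and 108 higher. Array weights gave the 2 arrays of a group the same weight, so they count noisier groups less, not a noisier replicate. With array weights 0 of the 40 were called, where 72 of all probe sets were lower and 93 higher. The changes were small and 30 of the 40 lay below 0, with a median of −0.11, where 46.9% of all probe sets lay below 0 with a median of 0.01. Before adjustment, 2 genes had p under 0.05, both lower and both mitotic, against 8.69% of all probe sets. The genes of G2 and mitosis had a median of −0.18 with 16 of 17 below 0, the replication genes a median of −0.13 with 9 of 11 below 0, the entry genes a median of −0.06 and the inhibitors a median of 0.03.

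HIK (AT1G18370_at), the kinesin HINKEL that expands the cell plate during cytokinesis, read 6.61 and 6.31 in the day 1 controls and 6.01 and 5.78 under drought. All control values lay above all drought values, as they did for 22.9% of all probe sets on day 1, and the change was −0.57 ± 0.22 (limma adjusted p = 0.514). CYCB1;1 (AT4G37490_at), a mitotic cyclin widely used as a marker of dividing cells, read 5.23 and 5.01 against 4.65 and 4.82. Its groups did not overlap either, and its change was −0.39 ± 0.15 (limma adjusted p = 0.516).

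Among the replication genes on day 1, CDT1A (AT2G31270_at), which loads the MCM helicase onto origins, read 5.59 and 5.74 in controls and 5.33 and 5.21 under drought, a change of −0.40 ± 0.19 (limma adjusted p = 0.605). MCM2 (AT1G44900_at), a helicase subunit, read 5.76 and 5.45 against 5.27 and 5.24. Its change was −0.35 ± 0.17 (limma adjusted p = 0.622). The groups did not overlap, which adds nothing to the test, since these genes were named for their small p.

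The day 1 control arrays themselves differed in the mitotic genes. Replicate 2 was above replicate 1 in 4 of the 17, with a median difference of −0.18, the same size as the median drought change of the group. Without control replicate 1 that median change was −0.12 with 16 of 17 below 0, and without drought replicate 1 it was −0.13 with 13 of 17 below 0. The median of the replication genes was −0.08 without drought replicate 1. The 3′ minus 5′ probe difference for actin, a measure of RNA integrity, was 2.39 and 2.03 in the day 1 controls and 0.99 and 0.34 under drought. Its part in these changes was not tested.

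The entry genes and inhibitors were near their controls on day 1. CYCD3;3 (AT3G50070_at), a D-type cyclin of proliferating leaf cells, read 5.82 on each control array and 5.68 and 5.66 under drought, a change of −0.15 ± 0.10. CYCD2;1 (AT2G22490_at), another D-type cyclin, read 6.67 and 6.94 against 6.60 and 6.71, and its groups overlapped. CDKA;1 (AT3G48750_at), the kinase that acts throughout the cycle, read 7.95 and 7.96 in controls and 8.06 and 8.08 under drought, a change of 0.12 ± 0.09. The drought values were the higher ones, by little, as in 5698 of the 21461 probe sets on day 1. LGO (AT3G10525_at), a SIAMESE-type inhibitor that promotes endoreduplication in sepal and leaf epidermis, read 7.26 and 7.24 against 7.43 and 7.38. SIM (AT5G04470_at), the founding SIAMESE inhibitor known for its role in trichomes, read 5.51 and 5.37 against 5.58 and 5.17. None of these changes passed the test (limma adjusted p = 0.744 for CYCD3;3, 0.781 for CYCD2;1, 0.778 for CDKA;1, 0.972 for LGO and 0.977 for SIM).

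After 10 days of moderate drought, 0 of the 40 genes were called, against 0.107% of all probe sets. In the 4 arrays of day 10 fitted alone, 0 of the 40 and 0 of all probe sets were called. Of the 40, 26 lay below 0 with a median of −0.10, where 45.2% of all probe sets did with a median of 0.02. Before adjustment, 4 genes had p under 0.05 (3 lower, 1 higher), against 10.4% of all probe sets. The replication genes had a median of −0.24 with 9 of 11 below 0 and the genes of G2 and mitosis a median of −0.17 with 15 of 17 below 0. Without drought replicate 1 the mitotic median was −0.11, and drought replicate 2 stood above replicate 1 in 30 of the 40 genes. The entry genes had a median of 0.10 with 1 of 7 below 0, and the inhibitors a median of 0.19.

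PCNA1 (AT1G07370_at), the sliding clamp of DNA replication, read 6.97 and 7.19 in the day 10 controls and 6.33 and 6.47 under drought. The groups were apart by more than either group's own spread, with a change of −0.68 ± 0.11 (limma adjusted p = 0.0774). With array weights PCNA1 was called (limma adjusted p = 0.0354), the 1 gene of the 40 that was, against 0.284% of all probe sets called lower. MCM7 (AT4G02060_at), a helicase subunit, read 5.44 on each control array and 5.07 and 5.12 under drought. Its change of −0.35 ± 0.19 was not called (limma adjusted p = 0.605).

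Among the mitotic genes at day 10, CYCB2;2 (AT4G35620_at), a mitotic cyclin, read 4.04 and 4.14 in controls and 3.80 and 3.81 under drought, a change of −0.28 ± 0.12 (limma adjusted p = 0.441). AUR1 (AT4G32830_at), an Aurora kinase of the spindle and cell plate, read 5.89 and 6.19 against 5.71 on each drought array. All drought values were below all control values here, as for 18.9% of all probe sets at day 10, and the AUR1 change was −0.33 ± 0.14 (limma adjusted p = 0.473).

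The inhibitor KRP2 (AT3G50630_at), which binds and inhibits the CDKA kinase, lay on the other side of 0 at day 10. It read 5.26 and 5.04 in controls and 5.70 and 5.64 under drought. All its drought values lay above all control values, as they did for 5510 of the 21461 probe sets at day 10. The KRP2 change of 0.52 ± 0.19 was not called (limma adjusted p = 0.351). KRP1 (AT2G23430_at), of the same family, read 6.73 on each control array and 6.73 and 7.13 under drought, so drought replicate 2 alone stood higher. CYCD3;2 (AT5G67260_at) read 8.10 and 7.96 in controls and 8.15 and 8.46 under drought, a change of 0.27 ± 0.23, and CYCD3;3 changed by 0.10 ± 0.10. CDKA;1 read 8.42 on each control array and 8.64 and 8.45 under drought, a change of 0.12 ± 0.09. The limma adjusted p of these genes ran from 0.745 for CDKA;1 to 0.873 for KRP1. At day 10 the actin 3′ minus 5′ difference was 1.37 and 1.81 in controls and 1.44 and 2.21 under drought, overlapping ranges.

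**Figure D1:**
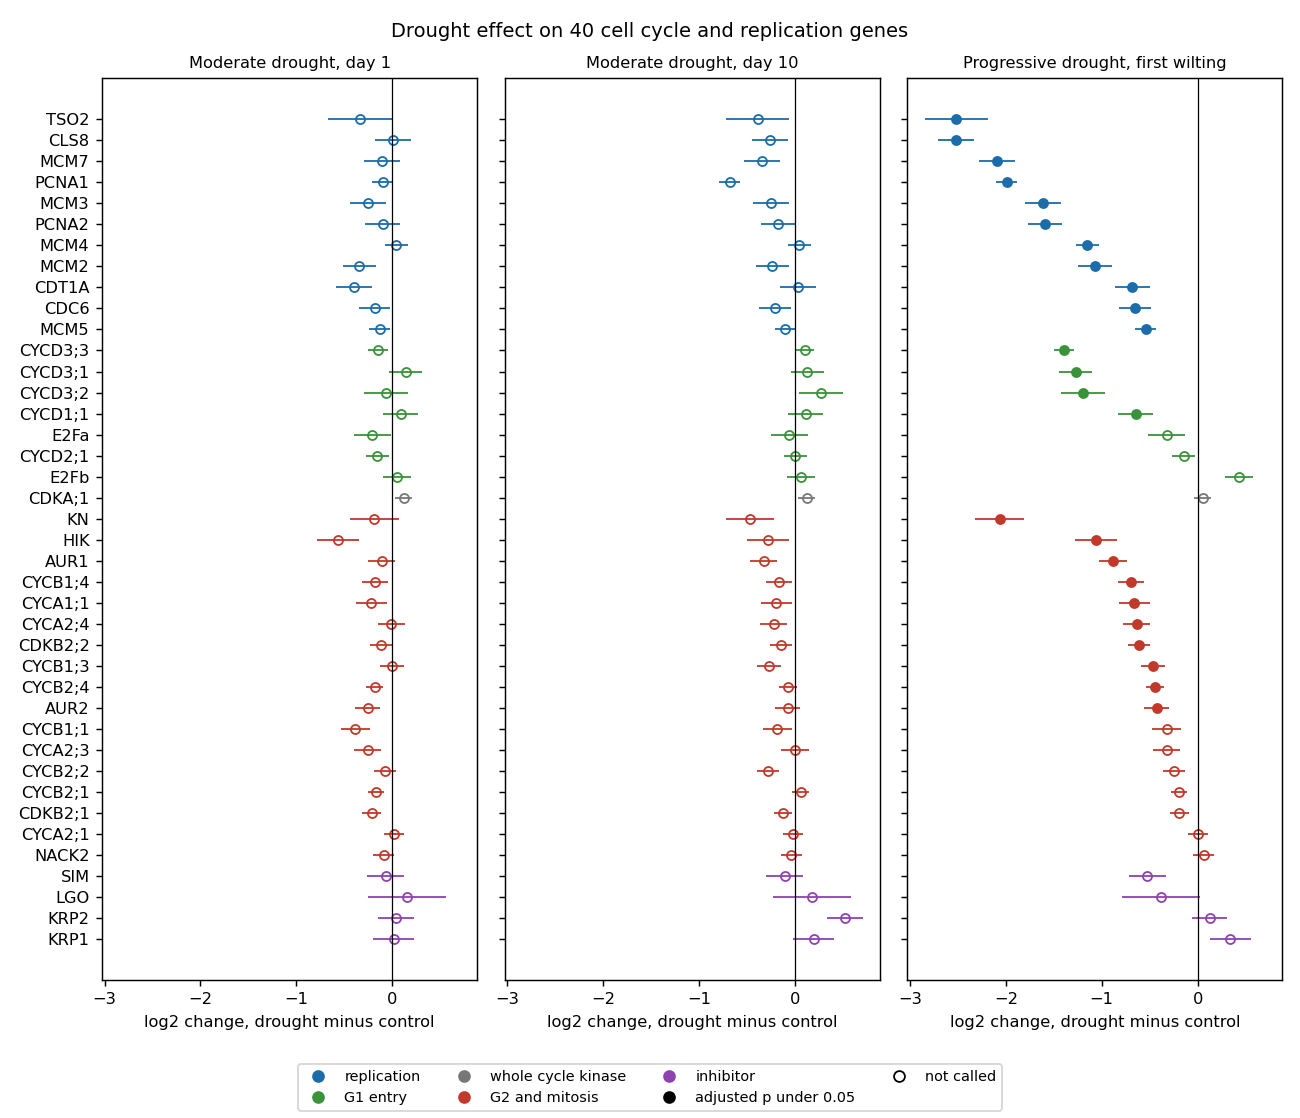
Log2 change (drought mean minus control mean, horizontal axis) of the 40 genes in each of the 3 samplings, with 1 standard error to each side from limma and filled points for adjusted p under 0.05. The moderate drought panels hold no filled point, while at wilting the 11 replication genes are all filled and run from −2.52 to −0.54.

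At the onset of wilting in progressive drought, 25 of the 40 genes fell and 0 rose, against 14.5% of all probe sets called lower and 12.5% called higher. The replication genes fell in 11 of 11 cases with a median change of −1.59, led by TSO2, CLS8, MCM7 and PCNA1. Of the entry genes, the 3 CYCD3 cyclins and CYCD1;1 fell, 4 of 7, with a median of −0.65 for the 7. Of the genes of G2 and mitosis, 10 of 17 fell with a median of −0.45, the cytokinesis genes KN and HIK the furthest, while 0 of the 4 inhibitors were called and CDKA;1 stayed within 1 standard error of its control. Over the 40 genes the median change was −0.62 with 34 below 0, and 13 were at −1 or lower, where 49.2% of all probe sets lay below 0 with a median of 0.00.

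With array weights 18 of the 40 genes were called lower, against 10.8% of all probe sets. Further fits left out each of the 12 arrays in turn. Those without a moderate drought array keep the changes at wilting and alter only the pooled spread. In the 4 arrays of this sampling fitted alone, 5 were called lower, namely PCNA1, MCM4, MCM7, CLS8 and CYCD3;3, against 4.59% of all probe sets. The 25 genes stayed below 0 in each alternative fit that held them; the filter on dim probe sets left out CDC6 and CYCB2;4.

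TSO2 (AT3G27060_at), the small subunit of ribonucleotide reductase, read 7.25 and 8.45 in the controls and 5.62 and 5.04 at wilting. The controls differed by more than 1 log2 unit from each other, yet the lower control stood well above the higher drought array, and the change was −2.52 ± 0.33, or 5.72-fold lower (limma adjusted p = 5.8e-04). CLS8 (AT2G21790_at), the large subunit of the same enzyme, read 7.33 and 7.69 against 4.73 and 5.27. It was 5.71-fold lower, at −2.51 ± 0.19 (limma adjusted p = 2.7e-05), again with no overlap. At wilting all drought values lay below all control values in 27.5% of all probe sets. For genes named for a small p, here and below, such a gap adds nothing to the test.

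PCNA1 read 7.03 and 7.20 in controls and 5.14 and 5.11 at wilting, tight within each group. It was 3.97-fold lower, at −1.99 ± 0.11 (limma adjusted p = 7.7e-06), and its close copy PCNA2 (AT2G29570_at) was 3.01-fold lower. MCM7 read 5.44 and 6.07 against 3.80 and 3.53, a 4.26-fold difference with drought values near background. MCM4 (AT2G16440_at), another helicase subunit, read 4.88 and 5.03 against 3.92 and 3.69, and was 2.22-fold lower. Neither MCM gene had overlapping groups (limma adjusted p = 7.5e-05 for MCM7 and 1.6e-04 for MCM4).

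The 5 measured helicase subunits differed in size of change, with MCM7 at −2.09, MCM3 at −1.61, MCM4 at −1.15, MCM2 at −1.07 and MCM5 at −0.54. The origin-loading factors CDT1A and CDC6 were at −0.68 and −0.65 (limma adjusted p = 0.0251 and 0.0171) and were not called with array weights (0.0887 and 0.0783). Without control replicate 2, CDT1A was at −0.39 and no longer called, and 9 of the 11 replication genes were called. Probe sets respond with unequal slopes, so the sizes are not an order of the underlying RNA changes. PCNA1 and PCNA2 encode nearly the same protein, and whether their probe sets share signal was not tested.

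Among the genes of cycle entry, CYCD3;3 read 4.87 and 5.06 in controls and 3.64 and 3.50 at wilting, 2.63-fold lower at −1.39 ± 0.10 (limma adjusted p = 2.5e-05). CYCD3;1 (AT4G34160_at), the CYCD3 cyclin known for its response to cytokinin, read 6.18 and 6.14 against 4.60 and 5.19. The drought arrays differed from each other but both lay below the controls, at −1.27 ± 0.17 (limma adjusted p = 7.1e-04). CYCD3;2 read 7.55 and 8.34 against 6.90 and 6.60, a change of −1.19 ± 0.23 (limma adjusted p = 0.00451). CYCD1;1 (AT1G70210_at) read 4.64 and 5.03 against 4.41 and 3.97, with no overlap. Its change of −0.65 ± 0.18 (limma adjusted p = 0.0281) was not called with array weights (0.0882), and became −0.43 without drought replicate 2, again not called.

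The other entry genes were not called. CYCD2;1 was at −0.15 and E2Fa, an activator of S-phase genes, at −0.32. E2Fb, a related activator, was at 0.43 (limma adjusted p = 0.0609), the highest value among the 40 genes. Because CYCD1;1 is the middle of the 7, the median of the entry genes was −0.43 without drought replicate 2 and −0.45 without control replicate 2.

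KN (AT1G08560_at), the syntaxin KNOLLE that fuses vesicles at the forming cell plate, read 7.25 and 6.36 in controls and 4.76 and 4.72 at wilting. The controls differed from each other, the drought arrays did not, and the gene was 4.18-fold lower at −2.06 ± 0.25 (limma adjusted p = 3.9e-04). HIK, also of cytokinesis, read 5.00 and 4.29 against 3.61 and 3.56. It was at −1.06 ± 0.22 (limma adjusted p = 0.00625), and at −0.70 and still called without control replicate 1.

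AUR1 read 5.55 and 5.30 in controls and 4.42 and 4.66 at wilting, a change of −0.88 ± 0.14 (limma adjusted p = 0.00169). CDKB2;2 (AT1G20930_at), a kinase made at G2 and mitosis, read 4.23 and 4.46 against 3.69 and 3.77, at −0.61 ± 0.11 (limma adjusted p = 0.0035). CYCB1;4 (AT2G26760_at), a mitotic cyclin, read 4.46 and 4.63 against 3.77 and 3.92, at −0.69 ± 0.13 (limma adjusted p = 0.0046). In these 3 genes the control and drought arrays did not overlap.

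The other mitotic genes that fell were CYCA1;1 at −0.66, CYCA2;4 at −0.64, CYCB1;3 at −0.47, CYCB2;4 at −0.45 and AUR2, the second Aurora kinase of the spindle, at −0.43. With array weights 6 of the 17 mitotic genes were called, and of these 5 only CYCB2;4 was (limma adjusted p = 0.0387). Over the 12 fits that left out an array, CYCA1;1 ran from −0.77 to −0.56, CYCA2;4 from −0.75 to −0.52 and CYCB1;3 from −0.56 to −0.38. AUR2 lay at the threshold (limma adjusted p = 0.0416), was called in 1 of the 12 fits that left out an array, and was at −0.25 without drought replicate 1. Within a family the calls were split: CDKB2;2 fell and CDKB2;1 was at −0.19, CYCA2;4 fell and CYCA2;1 was at 0.00, and HIK fell while NACK2, the kinesin closest to it and known for its role in pollen cytokinesis, was at 0.06. Differences between such pairs were not tested. CYCA2;1 read 3.32 and 3.32 in controls and 3.34 and 3.32 at wilting, near background, where a fall could hardly show. CYCB1;1 was at −0.32 (limma adjusted p = 0.166).

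CDKA;1 read 7.71 and 7.69 in controls and 7.78 and 7.72 at wilting, a change of 0.05 ± 0.09 (limma adjusted p = 0.779). Among the inhibitors, SIM read 4.62 and 4.75 against 4.35 and 3.97, at −0.53 ± 0.19 (limma adjusted p = 0.079), which became −0.72 without drought replicate 1 (limma adjusted p = 0.041) and −0.33 without drought replicate 2 (0.325). KRP1 read 4.27 and 4.88 against 5.08 and 4.75, with overlapping groups. KRP2 and LGO were not called and had no settled direction. KRP2 was at 0.12, and at −0.11 without control replicate 1, while LGO was at −0.38, at −0.97 without control replicate 1 and at 0.21 without control replicate 2.

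**Figure D2:**
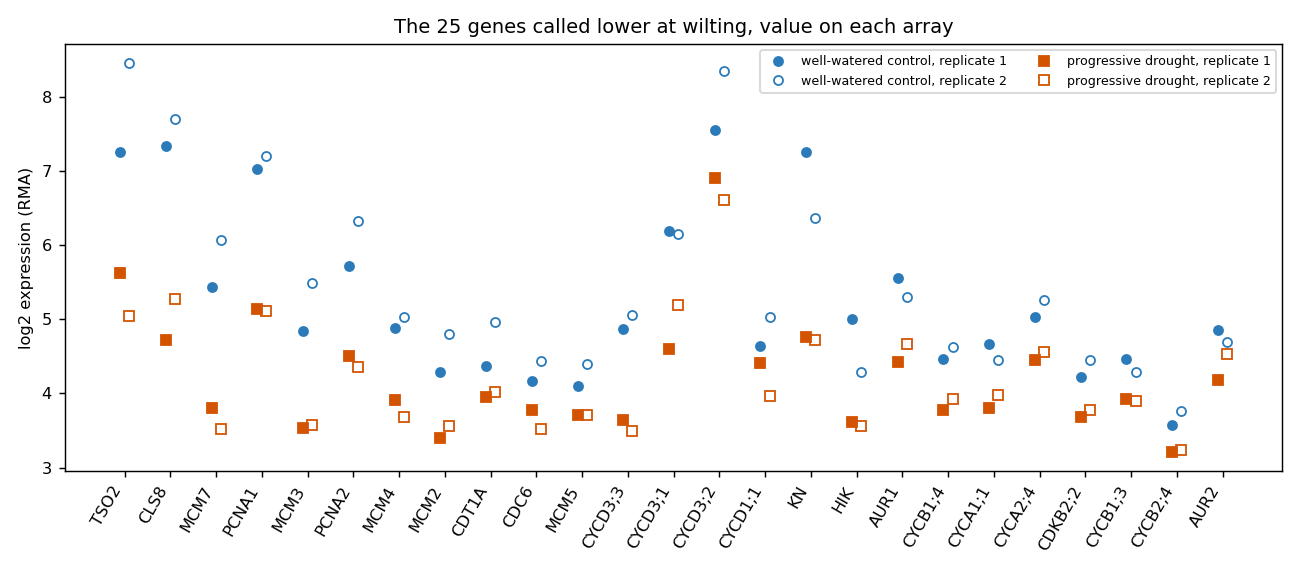
Log2 expression (vertical axis) on each of the 4 progressive drought arrays for the 25 genes called lower, in the order of role and size of change, with circles for controls, squares for drought, and open symbols for replicate 2. TSO2 and KN show the widest gaps between control arrays, 7.25 to 8.45 and 6.36 to 7.25, and for each gene every square lies below every circle. The same held for 27.5% of all probe sets, and it adds nothing to the test, since these genes were chosen for their small p.

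The control arrays of progressive drought differed by role. Replicate 2 was above replicate 1 in 11 of 11 replication genes, with a median difference of 0.51, in 6 of 7 entry genes and in 4 of 4 inhibitors. In the mitotic genes it was higher in 8 of 17 with a median of 0.00, and KN and HIK were lower in it by 0.89 and 0.71. Over all probe sets 55.3% were higher in replicate 2, with a median of 0.03.

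**Figure D3:**
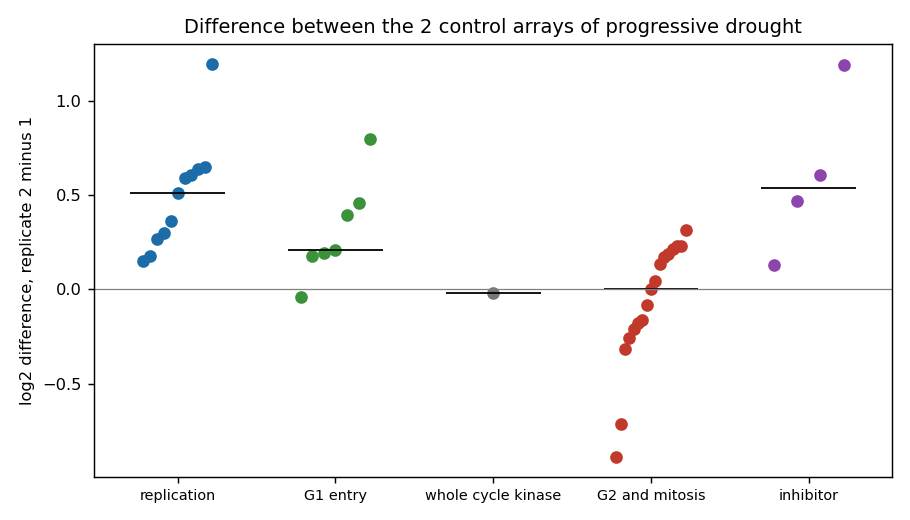
Log2 difference between the control arrays of progressive drought (replicate 2 minus replicate 1, vertical axis) for each gene, by role, with a line at the median of each role. All 11 replication genes lie above 0, with a median of 0.51, while the mitotic genes spread from −0.89 to 0.31.

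Many of these probe sets were dim. Of the 25 genes that fell, 10 had a control mean under the control array median of 4.69 and 19 had a drought mean under the drought array median of 4.67, where RMA values compress and differences come out smaller. The 4 flower markers, of organs a leaf sample should lack, read 3.13 to 3.76 on the drought arrays, and the drought values of several genes, MCM7, MCM3, CYCD3;3 and HIK among them, lay in or near that range. Their folds were therefore taken against values not set apart from background. On these arrays the actin 3′ minus 5′ difference was 1.41 and 1.25 in controls and 0.80 and −1.05 at wilting, the ubiquitin difference −0.18 and −0.43 against −0.36 and −0.12, and the 25S ribosomal RNA probe set 8.91 and 8.88 against 10.8 and 9.53. The part of RNA integrity in the falls was not tested.

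**Figure D4:**
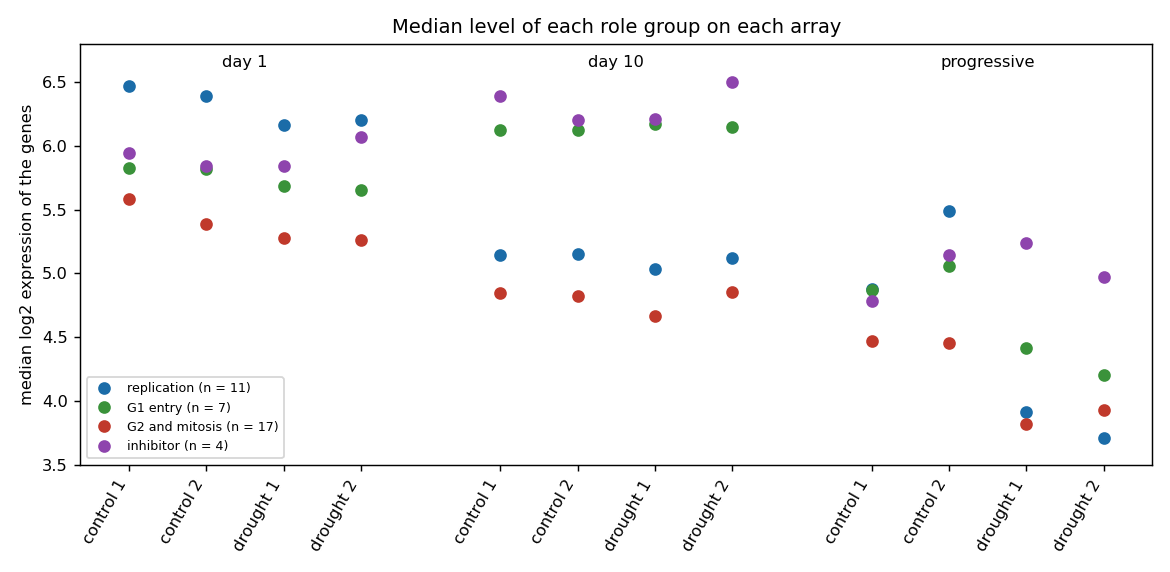
Median log2 expression (vertical axis) of the genes of each role on each of the 12 arrays, grouped by sampling. Levels are comparable only among the 4 arrays of a sampling and within a role; at wilting the replication, entry and mitotic medians on the drought arrays lie below those on the controls, while the inhibitor medians overlap.

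The drought effect itself was then compared between samplings by interaction contrasts, each effect against its own control. Between day 10 and day 1 of moderate drought, 0 of the 40 genes differed, as did 0% of all probe sets, and 1 gene had an unadjusted p under 0.05 against 6.86% of all probe sets. That gene was PCNA1, whose effect was lower at day 10 by 0.58 log2 units. The effect at wilting was lower than that at day 1 in 11 of the 40 genes, against 7.26% of all probe sets, and lower than that at day 10 in 11, against 7.61%. By role, 7 of 11 replication genes differed in each contrast. Of the 7 entry genes, 2 differed from day 1 and 3 from day 10, and of the 17 mitotic genes, 2 and 1.

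The genes that differed in both contrasts numbered 10: PCNA1, PCNA2, MCM3, MCM4, MCM7, TSO2, CLS8, CYCD3;1, CYCD3;3 and KN. AUR1 differed from day 1 alone, and CYCD3;2 from day 10 alone. CLS8 had the furthest difference from day 1, at −2.52 ± 0.26 (limma adjusted p = 8.3e-04), and from day 10, at −2.26 ± 0.26 (limma adjusted p = 0.00118). The day 1 count was 7 without replicate 2 of the day 1 control or without replicate 2 of the day 1 drought group. Both contrasts use the same wilting arrays, so their overlap is no separate evidence. The samplings also differ in plant age, soil water and value distribution, which cannot be told apart from the kind of drought.

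Across the 40 genes, which are not independent, the changes at day 10 and at wilting had a Pearson correlation of 0.57, those at day 1 and day 10 of 0.42, and those at day 1 and wilting of 0.20. Over all probe sets the same correlations were 0.29, 0.26 and 0.51. These are descriptions over genes on the same arrays.

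A wider list held 65 further cell cycle genes, of which 56 were measured. In progressive drought 11 of the 56 fell and 3 rose, beside the 14.5% lower and 12.5% higher over all probe sets, so the share called lower was not far from the background. The median change was −0.20 and 40 of the 56 lay below 0, where 49.2% of all probe sets did with a median of 0.00. At day 1 and day 10 0 of the 56 were called by limma, with 1 and 3 at an unadjusted p under 0.05, and array weights called 1 at day 1. At wilting array weights called 7 lower, beside 10.8% of all probe sets, and 2 higher. Of the 3 genes that rose, SMR5 (AT1G07500_at), a SIAMESE-related kinase inhibitor known for its induction by reactive oxygen, read 4.99 and 4.79 in controls and 7.61 and 6.43 at wilting, 4.38-fold higher at 2.13 ± 0.34 (limma adjusted p = 0.0015). The gene AT5G02420_at, which has no symbol in the RefSeq table used, read 4.58 and 4.35 against 6.73 and 5.94, 3.65-fold higher (limma adjusted p = 2.5e-04). On these genes drought replicate 1 was the higher array. Each drought value was above each control, as for 5815 of the 21461 probe sets at wilting. The gene AT1G10690_at, likewise without a symbol, read 4.48 and 4.68 against 5.28 and 5.23, at 0.67 (limma adjusted p = 0.018), and was not called with array weights.

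Among the 11 that fell, CKS2 (AT2G27970_at), a small subunit of the kinase complex, read 6.10 and 5.89 in controls and 4.32 and 4.95 at wilting, a change of −1.36. MAD2 (AT3G25980_at), of the spindle checkpoint, read 5.39 and 4.98 against 4.19 and 4.35, and CDC45 (AT3G25100_at), which joins the MCM ring in the active helicase, read 4.94 and 4.97 against 4.19 and 4.24. CCS52A1 (AT4G22910_at), an activator of cyclin breakdown known for promoting endoreduplication, read 4.37 and 4.51 against 3.47 and 3.66. The groups did not overlap in any of these. On day 1 CCS52A1 read 5.70 and 5.62 against 5.02 and 5.10, a change of −0.60 that was called with array weights (limma adjusted p = 0.0179) and not in the fit without them (0.111). The remaining genes that fell were ETG1, ICU2, FAS2, CCS52B, CYCA3;4, CYCD6;1 and MYB3R4.

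**Figure D5:**
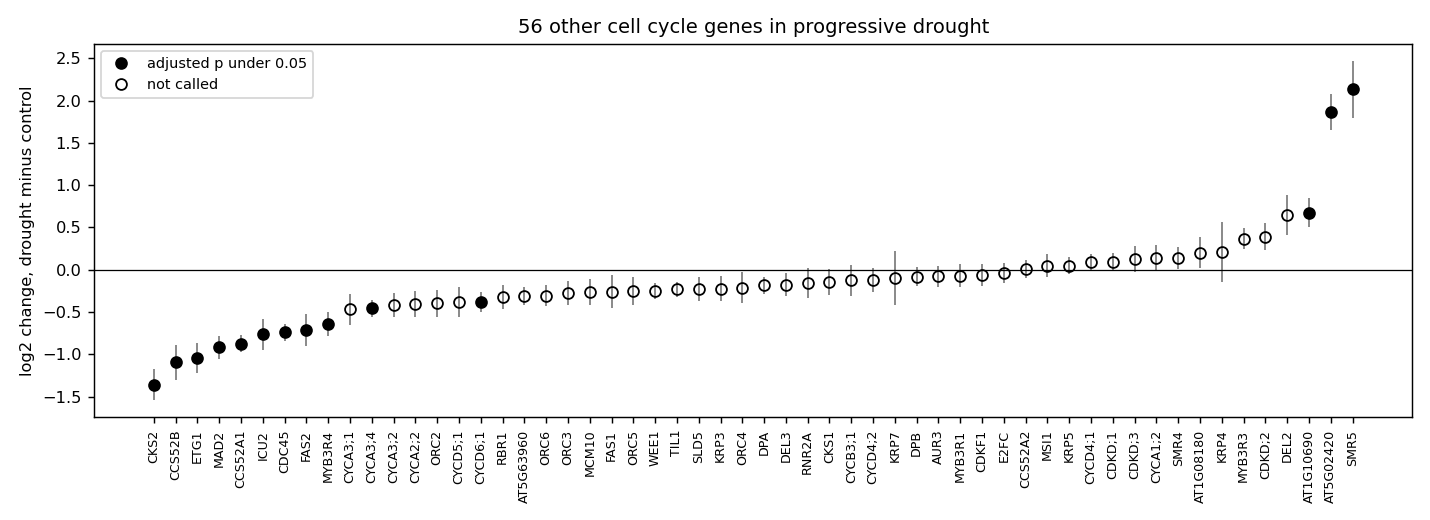
Log2 change at wilting (drought mean minus control mean, vertical axis) of 56 other cell cycle genes, ordered by size, with 1 standard error to each side from limma and filled points for adjusted p under 0.05. SMR5 and AT5G02420, at 2.13 and 1.87, stand apart at the upper end.

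Markers of shoot, leaf, root and flower tissues and cell types were read on the same arrays, 37 of 40 of them measured. At day 1 and day 10, 0 of the 37 were called by limma. With array weights the mesophyll marker CA1, a carbonic anhydrase gene, was called at day 10 (limma adjusted p = 0.0231), where it read 12.1 and 12.2 in controls and 11.2 and 11.3 under drought. At wilting, where 14.5% of all probe sets were called lower, 4 of 7 markers of the growing leaf primordium fell. ANT was at −1.26, GRF2 at −0.999, GRF3 at −0.78 and GRF1 at −0.68. With array weights 2 of the 7 were called, ANT and GRF2, and GRF1 was called in 1 of the 12 fits that left out an array and was at −0.31 without drought replicate 1. The group's median level ran from 4.73 to 4.98 in controls and from 4.11 to 4.20 under drought. All 3 mesophyll markers were called lower, CA1 at −2.48, RCA at −0.67 and LHCA1 at −0.49. With cyclic loess CA1 alone was called, RCA was at −0.20 and LHCA1 turned to 0.02, and with array weights 2 of the 3 were called. Of the root and trichome markers 1 of 4 each was called lower, and 0 with array weights. The shoot apex markers, STM, WUS and CLV3 included, had 0 of 7 called and a median of −0.04, with median levels from 3.59 to 3.63 in controls and 3.52 to 3.57 under drought. These medians are near background and the filter on dim probe sets kept 1 of the 7, so the lack of calls says little about apex tissue. STM was brighter, at 4.79 and 4.96 in controls and 5.01 and 4.92 at wilting. Its change of 0.10 ± 0.10 was not called (limma adjusted p = 0.611). The stomatal lineage and flower markers had 0 of 8 and 0 of 4 called, and that filter kept 3 of the 8 and 0 of the 4. The part of a smaller share of growing leaf tissue in the falls of the division genes was not tested.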

How the data were processed

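RNA from 12 pools of young leaves was hybridised to ATH1 arrays. The deposited log2 expression values were made with RMA in the affy package, per the submitters' processing notes, whose versions, like the build behind the locus-based probe sets, are not given in the sources used. Values of the 4 arrays of a sampling have nearly the same distribution, which differs between samplings; normalisation in sets is inferred from this. The 56 control probe sets were left out.

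Using limma 3.58.1 in R 4.3.3, means of 6 groups were fitted to 21461 probe sets over all 12 arrays (6 residual and 2.78 prior degrees of freedom), with 3 drought contrasts, 3 interaction contrasts, Benjamini-Hochberg adjustment over all probe sets and a threshold of 0.05. Scripts were tested on simulated data. Figures used matplotlib 3.10.9. The members, role groups, lists and markers were chosen with earlier results of these data known. In each role and sampling, array values were given for up to 4 called genes with the smallest p, or for 2 where none was called; TSO2 and HIK at wilting were added after their values were seen. In the wider list up to 4 called genes per direction were named. All 45 names matched a symbol (36) or synonym (9) of their locus in the RefSeq table of TAIR10.1. Alternatives were the 4 arrays alone, array weights, a trended robust prior, cyclic loess, a filter on dim probe sets, a replicate block, and leaving out each array. Sequences are not shown.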

Additional observations from a re-analysis of the deposited data

Results flagged for a closer look

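The interaction contrasts found the drought effect at wilting lower than at day 1 of moderate drought, on the log2 scale, by −1.89 in PCNA1, −1.49 in PCNA2, −1.37 in MCM3, −1.19 in MCM4, −1.98 in MCM7, −2.18 in TSO2, −2.52 in CLS8, −1.41 in CYCD3;1, −1.24 in CYCD3;3, −0.77 in AUR1 and −1.88 in KN. Against day 10 the differences were −1.31 in PCNA1, −1.42 in PCNA2, −1.36 in MCM3, −1.20 in MCM4, −1.74 in MCM7, −2.13 in TSO2, −2.26 in CLS8, −1.40 in CYCD3;1, −1.47 in CYCD3;2, −1.50 in CYCD3;3 and −1.60 in KN. Each was called by limma over all probe sets, and the largest adjusted p among them was 0.0377, for AUR1. In PCNA1 the drought effect was −0.10 at day 1, −0.68 at day 10 and −1.99 at wilting, while in CYCD3;3 it was −0.15, 0.10 and −1.39.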

How the results depend on the processing

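With array weights 1 gene was called at day 10. In the 4 arrays alone 5 genes were called in progressive drought. Over the 12 fits that each left out an array, the count called in progressive drought ran from 19 (without control replicate 2) to 25, the count that differed from day 1 from 7 to 14, the count that differed from day 10 from 8 to 15, and the counts for day 1, day 10 and day 10 minus day 1 stayed at 0. In progressive drought the trended robust prior called 26 and cyclic loess 24, for which counts over all probe sets are not given here. The filter on dim probe sets called 23 of the 31 genes it kept lower, where 3102 of all 12876 probe sets it kept were called lower. With the replicate number as a block 22 were called, and 9 and 8 differed from day 1 and day 10. Deviations of same-numbered control and drought arrays correlated at 0.03 on day 1, 0.06 at day 10 and −0.49 in progressive drought. In progressive drought same-numbered arrays thus tended to deviate in opposite directions. Whether arrays were paired in another order was not tested. No called change of the 40 genes turned direction. Over 2403 values of single genes and role medians under the alternatives, 56 kept their direction but lost the call, 5 gained it, and 19 role medians moved by more than the spread between replicates. With 2 arrays per group and many probe sets near background, small changes were not detectable.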
